A study of Mus musculus with 8 samples.

Results

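The 10 genes that carry the canonical TGFβ signal were followed in sorted microglia of mice lacking *Smad2/3*. They are the ligand genes *Tgfb1*, *Tgfb2* and *Tgfb3*, the receptor genes *Tgfbr1* and *Tgfbr2*, the signal-carrying *Smad2*, *Smad3* and *Smad4*, and the feedback genes *Smad7* and *Skil*. They were chosen by name, as the rows whose Ensembl identifier carries one of these symbols, and all 10 were found among the 55573 genes counted. Each had at least 23 reads in every library, so all 10 passed the filter on low counts and were tested. Microglia, the resident macrophages of the brain, were sorted from brains at postnatal day 60, with 1 library for each of 4 mutant mice (labelled SmadKO) and 4 control mice (labelled WT). By the study's methods, brain cells were enriched on a Percoll gradient and a TdTomato reporter was gated in flow cytometry alongside CD45 and CD11b. The mutants were *Smad2/3* fl/fl;*Cx3cr1* Cre, in which both genes are removed by a Cre recombinase made from the *Cx3cr1* locus in microglia and other macrophages of the same lineage. The labels call the controls wild-type littermates, while the study's methods describe its controls in general as Cre-positive with 1 floxed copy. A control with 1 deleted copy of each gene therefore cannot be told from a wild-type one here.

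TGFβ ligands are secreted in a latent form and, once activated, bring together the type II receptor TGFBR2 and the type I receptor TGFBR1. TGFBR1 then phosphorylates SMAD2 and SMAD3, which join SMAD4 and act on genes in the nucleus. SMAD7 blocks the receptor, and SnoN, the product of *Skil*, represses SMAD complexes on DNA. Both of these inhibitors are themselves well-known early targets of the pathway. In microglia TGFβ signaling is known for maintaining the mature, homeostatic state.

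The libraries held 35639502 to 41946479 reads counted on genes. Levels are given as CPM, the reads of a gene per 1e6 reads counted in its library, after scaling by TMM, and tests are edgeR's quasi-likelihood test with Benjamini-Hochberg adjustment over the 20153 genes tested, with a call at an adjusted p under 0.05. The sorted cells carried macrophage markers in every library, whose 6 markers summed to between 8230 and 10900 CPM per mutant and between 17100 and 25500 CPM per control. Of these 6, 3 were lower in mutants, among them *Csf1r* and *Itgam* (log2 fold changes -1.32 and -2.51). The other 3, *Aif1*, *C1qa* and *Tyrobp*, were not called, with log2 fold changes of -0.20, -0.04 and 0.02. Markers of border-associated macrophages were higher in mutants, with a summed level of 1560 to 2430 CPM over 5 markers in mutants and 26.4 to 36.6 CPM in controls, and 4 of the 5 were called higher. T and NK cell markers summed to 55.9 to 137 CPM in mutants and 13.7 to 38.5 CPM in controls, with 3 of 4 called higher. Neuronal and oligodendrocyte-lineage markers were highest in the libraries numbered 1 of each group, and none of these markers was called. Monocyte, neutrophil and B cell markers gave no call, and among astrocyte and mural markers *Slc1a3* and *Pdgfrb* were lower. Endothelial markers summed to at most 36.6 CPM in any library and mural markers to at most 29.8 CPM, and *Cldn5* and *Rgs5* were at 0 in at least 1 library. *Xist* was at 99.5 to 183 CPM in controls and at most 0.562 CPM in mutants, so genotype and the sex of the mice cannot be told apart for any gene in these comparisons. In sorted populations, fewer cells of a type and less RNA per cell cannot be told apart either, and the part of other cell types in the results that follow was not tested.

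Across the pathway, 5 of the 10 genes were lower in mutants and 1 was higher. The genes that fell were both receptors, *Smad3*, *Smad4* and *Smad7*, and the gene that rose was *Tgfb3*. *Tgfb1*, *Tgfb2*, *Smad2* and *Skil* did not pass the test. With 1 library left out at a time, 2 to 5 genes were called lower, with 2 in the fits without control 2, control 3, mutant 2 or mutant 4 and 3 in those without control 1 or control 4, and 1 was called higher in each fit. Among all genes tested, 7.97% were called lower and 4.36% higher. In the same 5 genes every mutant library lay below every control library, and in *Tgfb3* every mutant lay above, whereas over all genes tested 13.0% separated downward and 9.04% upward. The median log2 fold change was -0.71 over the 10 genes and 0.01 over all genes tested. These counts and the median include *Smad2* and *Smad3*, which were deleted by design, and *Smad3* is 1 of the 5 genes called lower.

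**Figure D1:**
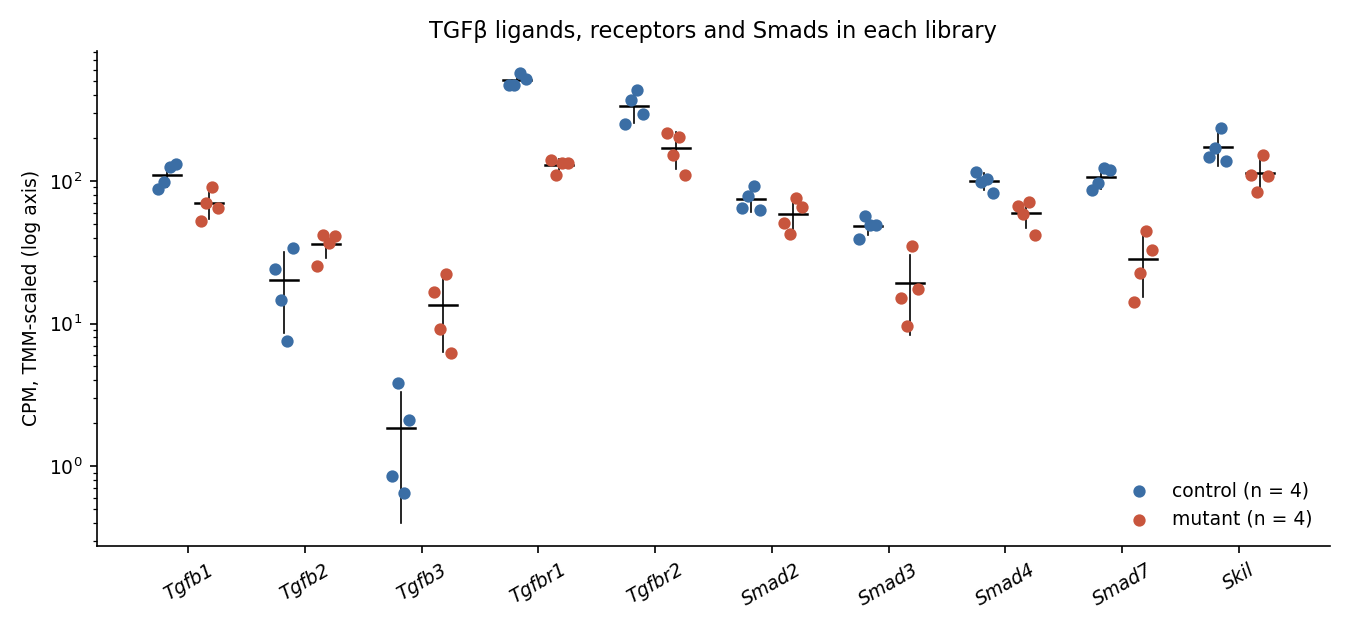
TMM-scaled CPM (log axis) of the 10 genes in the 4 control and 4 mutant libraries, with each point a library, the horizontal bar the group mean and the vertical line its SD (n = 4). *Tgfb3* is the gene with mutants above controls in all libraries, and *Tgfbr1* shows the widest gap for its spread, at 129 ± 13.7 against 508 ± 45.9 CPM.

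Of the ligand genes, *Tgfb3* rose in mutants, while *Tgfb1*, the main microglial ligand, was at 62.9% of its control mean without passing the test. *Tgfb2* had a higher mutant mean but overlapping groups.

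*Tgfb1* was at 52.8, 70.2, 90.8 and 64.7 CPM in mutants 1 to 4, while controls 1 to 4 had 88.3, 98.7, 125 and 131 CPM. The groups overlapped by a single library, since mutant 3 lay just above control 1. With a log2 fold change of -0.67 (SE 0.21, adjusted p = 0.0664), this gene was close enough to the threshold that 4 of 15 alternative fits called it, with adjusted p between 0.021 and 0.164. Without mutant 3 the adjusted p was 0.0403.

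*Tgfb2* was at 25.4, 41.5, 36.6 and 41.3 CPM in mutants 1 to 4, while controls 1 to 4 had 24.2, 14.6, 7.53 and 34.0 CPM. Control 4 lay among the mutants, and the other 3 controls lay below all of them, control 3 by the most. The log2 fold change of 0.85 (SE 0.41) gave an adjusted p of 0.211, and no alternative fit called it.

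*Tgfb3* was nearly silent in controls, at 0.853, 3.8, 0.644 and 2.1 CPM, and was at 16.7, 9.12, 22.3 and 6.21 CPM in mutants. Every mutant was above every control, although the mutants themselves spread widely, with mutants 1 and 3 high and mutants 2 and 4 low. The rise was 7.33-fold, a log2 fold change of 2.87 (SE 0.65, adjusted p = 0.0208). It was called in each of the 8 fits that left out 1 library, with adjusted p between 0.0147 and 0.0496, but not with a replicate block (0.0676) or without both libraries numbered 1 (0.0749), in a range of 3.97e-05 to 0.0749 over all 15 alternatives. *Tgfb3* shares 7.6% of its exon bases with *Gm48008* on the opposite strand, and the counts do not use strand. *Gm48008* itself was counted at no more than 0.696 CPM in any mutant and at 0 in all controls. Border-associated macrophage markers were high in the same 4 libraries, and their part in the rise of *Tgfb3* was not tested. Their sum was highest in mutant 4 (2430 CPM), which had the lowest *Tgfb3* of the mutants. Among these markers *Cd163* alone (74.3, 35.0, 76.9 and 34.6 CPM in mutants 1 to 4) had the same order as *Tgfb3*. *Pf4* (652, 876, 982 and 1370 CPM) and *Ms4a7* (472, 540, 619 and 714 CPM) were highest in mutant 4. *Mrc1* and *Lyve1* were highest in mutant 3 but ordered the other mutants differently from *Tgfb3*. Over 4 mutants these orders are a description only.

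On a per-length scale, the summed ligand level overlapped between the groups while its makeup did not. CPM per kilobase of exon over the 3 ligand genes summed to 24.1 ± 4.84 in mutants and 26.0 ± 4.71 in controls (SD, n = 4 each). *Tgfb1* made up 52.9% to 58.8% of that sum in mutants and 79.8% to 94.3% in controls. The share of *Tgfb3* was 8.43% to 25.0% in mutants and 0.725% to 4.84% in controls. The groups did not overlap in either share, and these shares are descriptions with no test of their own. *Tgfb2* shares also did not overlap, at 20.4% to 32.7% in mutants and 4.95% to 19.1% in controls.

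Both receptor genes fell, with the larger fold change in the type I receptor, and the difference between them is tested with the within-library ratios. *Tgfbr1* was at 140, 109, 134 and 135 CPM in mutants 1 to 4, while controls 1 to 4 had 473, 473, 570 and 516 CPM. The groups were far apart, and the mutants were as tightly grouped as the controls, with coefficients of variation of 10.6% and 9.04%. On the log2 scale the change was -1.97 (SE 0.15, adjusted p = 8.62e-05), so that mutants kept 25.5% of the control mean. Its fold change lay at the 3.84th percentile of all genes tested, and all 15 alternative fits called it.

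*Tgfbr2* was at 217, 152, 204 and 109.6 CPM in mutants 1 to 4, while controls 1 to 4 had 249.5, 372, 436 and 295 CPM. The groups did not overlap, but mutants 1 and 3 came close to control 1. The log2 fold change was -0.99 (SE 0.26, adjusted p = 0.0381). Leaving out 1 library at a time gave log2 fold changes of -1.12 to -0.83 and adjusted p of 0.0331 to 0.102. The call held in 2 of those 8 fits, those without control 1 or mutant 1, and was lost without any of the other 6 libraries. With libraries scaled by their totals it also missed the threshold (adjusted p = 0.0542), in a range of 0.00287 to 0.102 over all alternatives.

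The sequences just upstream of the receptor genes are shown with matches to short motifs that SMAD complexes bind. The part of such motifs in the receptor levels was not tested. *Tgfbr1* (ENSMUSG00000007613) lies on the plus strand of chromosome 4, from 47353222 to 47414931 of GRCm38, and *Tgfbr2* (ENSMUSG00000032440) on the minus strand of chromosome 9, from 116084293 to 116175360. The windows are the 250 bases before the RefSeq start site nearest to the annotated start of the gene, chr4:47352972-47353221 (plus strand) and chr9:116175364-116175613 (minus strand) of RefSeq's GRCm38.p6. Both are written 5′ to 3′ on the gene's strand. Capitals mark every match to the Smad box CAGAC or its reverse complement GTCTG, and to the GC-rich motif GGCGC or its reverse complement GCGCC.
Tgfbr1: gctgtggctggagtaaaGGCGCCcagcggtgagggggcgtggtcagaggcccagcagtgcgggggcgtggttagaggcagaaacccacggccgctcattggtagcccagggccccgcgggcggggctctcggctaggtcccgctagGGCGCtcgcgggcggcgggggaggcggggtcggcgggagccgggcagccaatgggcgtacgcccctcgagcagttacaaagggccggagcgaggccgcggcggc
Tgfbr2: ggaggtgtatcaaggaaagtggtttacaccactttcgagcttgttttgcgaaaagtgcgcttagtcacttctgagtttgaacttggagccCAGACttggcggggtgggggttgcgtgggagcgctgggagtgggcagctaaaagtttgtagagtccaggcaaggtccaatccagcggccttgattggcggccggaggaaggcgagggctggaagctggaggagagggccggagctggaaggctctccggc
The *Tgfbr1* window held no CAGAC or GTCTG and 3 matches to the GC-rich motif, 2 of which overlap in the run GGCGCC that begins 233 bases before the start, and the third of which begins 104 bases before it. The *Tgfbr2* window held a single CAGAC, beginning 160 bases before the start, and no GGCGC or GCGCC. Other forms of the GC-rich motif were not searched. Of 32851 mouse promoter windows of the same length, 42.2% held CAGAC or GTCTG and 32.0% held GGCGC or GCGCC, so either motif is common. In the windows of the other members with an entry that could be shown, *Tgfb2* held 2 Smad boxes, *Tgfb1* held 1 GC-rich match, and *Smad3* held neither. A match is a string of letters and not a measured binding site.

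Of the deleted genes, *Smad3* was lower in mutants and *Smad2* did not pass the test. The counts are sums over all exons of a gene, so RNA from exons that the deletion leaves in place still adds to them, and neither level measures how many cells lost the gene. *Smad3*, on chromosome 9, was at 15.1, 9.61, 35.1 and 17.5 CPM in mutants 1 to 4, while controls 1 to 4 had 39.5, 56.9, 49.0 and 49.2 CPM. Mutant 3 stood apart from the other mutants and came within a few CPM of control 1, although the groups did not overlap. For *Smad3* the log2 fold change was -1.33 (SE 0.36, adjusted p = 0.0429). The call held in only 1 of the 8 fits with a library left out, that without mutant 3, where it was -1.79 (adjusted p = 0.00432), and over all 15 alternatives adjusted p ran from 0.00317 to 0.11.

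*Smad2*, on chromosome 18, was at 50.5, 42.7, 75.9 and 66.0 CPM in mutants 1 to 4, while controls 1 to 4 had 64.8, 78.4, 92.4 and 62.7 CPM. Mutants 3 and 4 lay inside the control range. The log2 fold change was -0.34 (SE 0.22, adjusted p = 0.34), and no alternative called it.

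*Smad4*, which encodes the partner shared by TGFβ and BMP signals and was not deleted, was also lower. It was at 66.5, 58.5, 70.8 and 41.6 CPM in mutants 1 to 4, while controls 1 to 4 had 115, 98.6, 103 and 82.5 CPM. The highest mutant was below the lowest control. This was a log2 fold change of -0.75 (SE 0.19, adjusted p = 0.0368), and mutants kept 59.4% of the control mean. The call was kept without mutant 1, mutant 3 or control 4 and lost without each of the other 5 libraries, with adjusted p of 0.0399 to 0.092 over the 8 fits. Scaling by library totals also lost it (adjusted p = 0.07; range over all 15 alternatives 0.00372 to 0.0986).

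Of the feedback inhibitors, *Smad7* fell and *Skil* did not pass the test. *Smad7* was at 14.1, 22.6, 44.5 and 32.6 CPM in mutants and 86.1, 96.2, 123 and 119 CPM in controls. The groups were well apart, and mutant 3 was again the highest mutant. Its log2 fold change was -1.90 (SE 0.33, adjusted p = 0.0062), which left 26.8% of the control mean, and all 15 alternatives called it, with log2 fold changes between -2.20 and -1.68.

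*Skil* was at 109, 83.1, 152 and 108 CPM in mutants 1 to 4, while controls 1 to 4 had 147, 171, 236 and 137 CPM. Mutant 3 lay inside the control range and the other 3 mutants below it. The log2 fold change of -0.61 (SE 0.23) gave an adjusted p of 0.122, and none of the alternatives called it, with adjusted p from 0.0598 to 0.287.

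**Figure D2:**
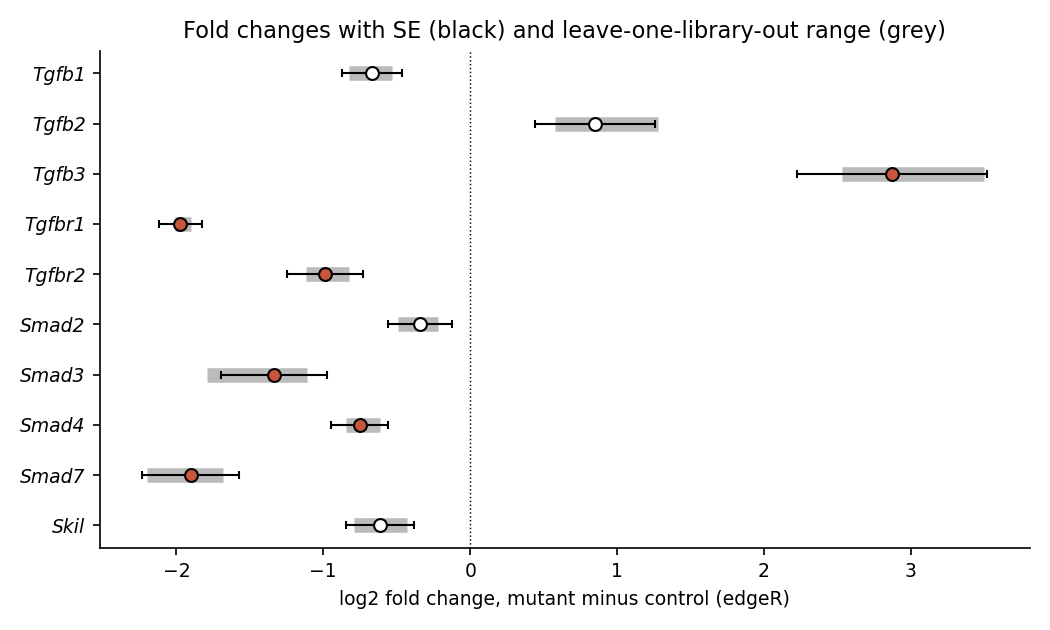
Log2 fold change of mutants over controls for the 10 genes (edgeR), with the SE as black bars, the range over the 8 fits that leave out 1 library as grey bands, and filled points for genes called at an adjusted p under 0.05. All grey bands stay on their own side of 0, and those of *Tgfbr1* (-2.01 to -1.90), *Smad7* (-2.20 to -1.68) and *Tgfb3* (2.53 to 3.50) belong to the genes called in all 8 fits.

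The order of the genes by level per kilobase of exon was spread out in controls and compressed in mutants. In controls *Tgfbr1* was highest, at 77.7 ± 7.03 CPM per kilobase, and stood above *Tgfbr2* at 41.3 ± 10.1 with no overlap between their libraries. *Smad4*, *Smad7*, *Tgfb1* and *Skil* followed at 26.9, 23.5, 22.0 and 17.8 CPM per kilobase, and each overlapped the next. *Smad3* and *Smad2*, at 8.78 and 8.49, overlapped each other and lay below *Skil* without overlap. *Tgfb2* at 3.47 and *Tgfb3* at 0.546 closed the order, each below its neighbour without overlap. In mutants the highest gene was *Tgfbr2* at 20.8 ± 6.04 and the lowest was *Smad3* at 3.49 ± 1.99 CPM per kilobase, and every neighbouring pair in the order overlapped.

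Ratios inside a library, which do not depend on how libraries are scaled to each other, separated the groups without overlap for 2 of 4 pairs, neither of which passed the test after adjustment. The log2 ratio of *Smad3* to *Smad2* in CPM was -1.74, -2.14, -1.11 and -1.91 in mutants 1 to 4 and -0.715, -0.462, -0.914 and -0.349 in controls 1 to 4. The groups did not overlap, and mutant 3 again lay nearest to the controls. The difference was -1.12 (two-sided exact permutation p = 0.0286, adjusted p = 0.0572 over 4 ratios). With 70 arrangements of the libraries, 0.0286 is the smallest p this design can give, so no ratio could pass after adjustment unless at least 3 of the 4 reached it. Per kilobase, *Smad3* made up 32.6% ± 6.9 of *Smad2* plus *Smad3* in mutants and 50.9% ± 4.37 in controls (SD, n = 4 each).

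The log2 ratio of *Tgfbr2* to *Tgfbr1* turned from negative in all controls (-0.922, -0.347, -0.386 and -0.805) to positive in mutants 1 to 3 (0.63, 0.472 and 0.611), with mutant 4 at -0.298. Mutant 4 was just above the highest control, so the groups did not overlap, with a difference of 0.97 (exact permutation p = 0.0286, adjusted p = 0.0572). *Smad3* to *Smad4* differed by -0.71 (exact permutation p = 0.2, adjusted p = 0.267) with overlapping groups. *Smad2* to *Smad4* differed by 0.41 (exact permutation p = 0.286, adjusted p = 0.286), again with overlap.

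**Figure D3:**
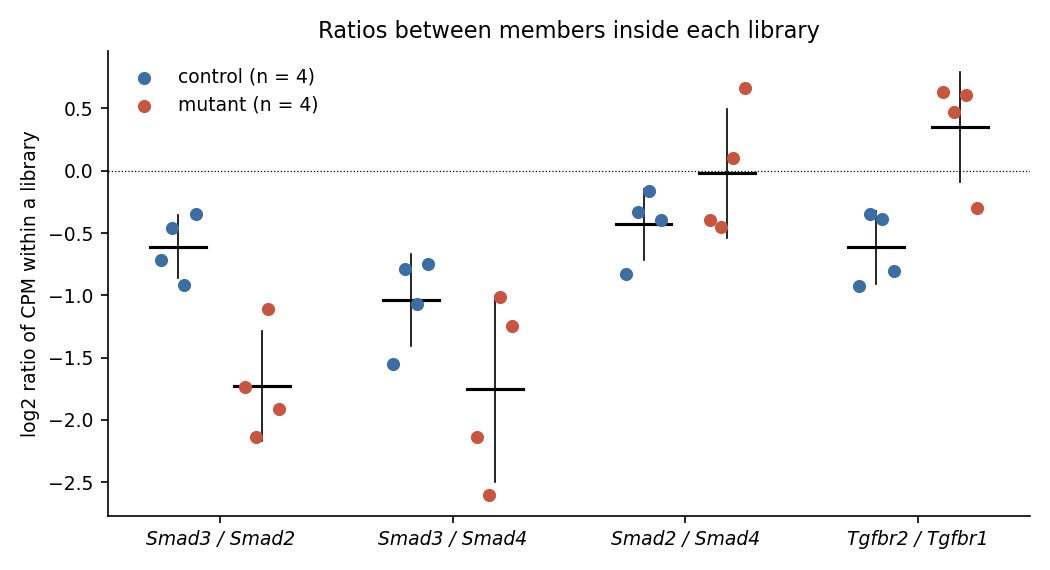
Log2 ratio of CPM between 2 genes of the same library for 4 pairs, with each point a library, the horizontal bar the group mean and the vertical line its SD (n = 4 per group). For *Smad3* to *Smad2* all mutants lie below all controls, and for *Tgfbr2* to *Tgfbr1* all mutants lie above all controls, mutant 4 by the least.

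Within groups, the members were compared by their deviations from the group mean, so that the difference between genotypes plays no part. Over 45 pairs and 8 libraries, Pearson's r ranged from -0.70 to 0.92 with a median of 0.21, and 33 pairs were positive. Against all genes tested, the median r of a member lay between -0.06 (*Smad2*) and 0.04 (*Smad4*). The 5th percentile of r lay between -0.80 (*Tgfbr2*) and -0.59 (*Tgfb3*). The 95th percentile lay between 0.61 (*Tgfb3*) and 0.83 (*Tgfb2*), so large values are common over 8 libraries. With 576 arrangements of the libraries within groups, 4 pairs had an exact permutation p under 0.05 by Pearson's r and 4 by Spearman's rho, and none passed adjustment over the 45 pairs (smallest adjusted p = 0.234 and 0.43). All points share libraries and their scaling.

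The closest pair was *Smad2* and *Skil*, with r = 0.92 (exact permutation p = 0.00521, adjusted p = 0.234) and rho = 0.91 (p = 0.0122, adjusted p = 0.43). Without the 2 libraries farthest from the median of *Smad2*, r was 0.83. *Tgfb1* and *Smad7* followed with r = 0.85 (exact permutation p = 0.0208, adjusted p = 0.39) and rho = 0.79 (p = 0.0382, adjusted p = 0.43), and r fell to 0.61 without the 2 farthest libraries. The deleted genes had r = 0.81 (exact permutation p = 0.033, adjusted p = 0.39) and rho = 0.64 (p = 0.127, adjusted p = 0.45), and without the 2 farthest libraries r was 0.52. For this pair r was 0.445 among controls alone and 0.936 among mutants alone (n = 4 each). Mutant 3 stood above the mutant mean for all 10 genes, by 1.02 on the log2 scale for *Smad3*, 0.77 for *Smad7* and 0.41 for *Smad2*, and by only 0.04 for *Tgfb2* and 0.05 for *Tgfbr1*. Leaving it out took the median r over the pairs from 0.21 to 0.08. Against *Tgfbr2*, *Tgfb2* had r = -0.70 (exact permutation p = 0.0347, adjusted p = 0.39). For this pair rho was -0.81 (exact permutation p = 0.0295, adjusted p = 0.43), and r was -0.80 without the 2 farthest libraries. The r of *Tgfb2* was weakly positive with *Tgfb1* (0.08), *Tgfb3* (0.16) and *Smad7* (0.12) and negative with the remaining members.

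**Figure D4:**
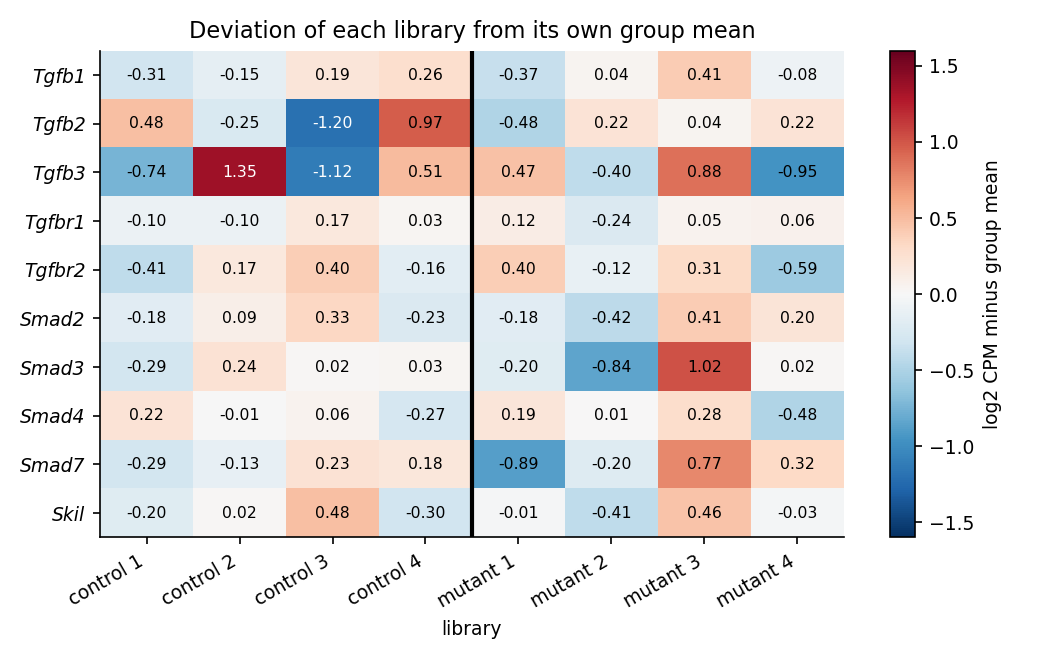
Deviation of each library from its own group mean in log2 CPM for the 10 genes (red above, blue below; control libraries left of the line, mutants right). Mutant 3 is above 0 in every row, most in *Smad3* (1.02), and the ligands *Tgfb2* and *Tgfb3* vary most among controls (-1.20 to 0.97 and -1.12 to 1.35).

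Ranked among 10771 well expressed genes (mean log2 CPM of 3 or more), those whose within-group deviations were most like *Smad2* over the 8 libraries were *Poldip3*, *1810013L24Rik* and *Faf2* (r = 0.98 for each). For *Smad3* they were *Stag1* (r = 0.98), *Atxn7l1* (r = 0.98) and *Ttc14* (r = 0.97). Of these 6 genes, *Poldip3* was lower in mutants (log2 fold change -0.69, adjusted p = 0.0136) and the other 5 were not called. With so many genes ranked over 8 libraries, these values are a description only.

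Around these genes, 52 others of the pathway were listed and 50 could be tested, since *Foxh1* had no read in any library and *Snai1* had 11 reads in all. Of the 50, 12 were lower in mutants and 4 were higher, with a median log2 fold change of -0.42. These counts stand beside 7.97% lower and 4.36% higher over all genes.

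Among 8 accessory and activin or BMP receptors, 3 fell and none rose (median log2 fold change -0.85). Over all genes tested, 7.97% were called lower and 4.36% higher. *Eng*, which encodes the co-receptor endoglin, had 6.39 ± 1.45 CPM in mutants beside 48.8 ± 13.5 CPM in controls, a log2 fold change of -2.93 (SE 0.27, adjusted p = 0.000215). *Acvr1*, a type I receptor of the BMP class, changed by -1.85 (adjusted p = 0.00365) and the activin type II receptor gene *Acvr2b* by -1.20 (adjusted p = 0.0268). The co-receptor gene *Tgfbr3* had 9.37 ± 3.97 CPM in mutants beside 9.96 ± 4.53 CPM in controls and was not called. Of the 3 calls, that of *Acvr2b* was lost in 6 of the 8 fits with a library left out and held without control 1 or mutant 3, while *Eng* and *Acvr1* were called in all of them.

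The other Smads moved in both directions. *Smad1*, which carries BMP signals, fell (log2 fold change -0.92, SE 0.24, adjusted p = 0.0386), though in only 1 of the 8 fits with a library left out, that without mutant 3, was it called. *Smad6*, the inhibitor of the BMP branch, rose to 25.9 ± 2.43 CPM in mutants against 10.7 ± 4.0 in controls (log2 fold change 1.27, SE 0.28, adjusted p = 0.0201). *Smad9*, a further BMP-branch Smad, rose from 0.314 ± 0.208 to 3.6 ± 2.75 CPM (log2 fold change 3.50, SE 0.76, adjusted p = 0.018), and it passed the filter on low counts through the mutants. Its call was lost without control 2 (adjusted p = 0.0558) or control 3 (0.0608), in a range of 5.77e-05 to 0.0608 over its alternatives. *Smad5* had 23.5 ± 9.85 CPM in mutants beside 26.4 ± 2.77 CPM in controls and was not called. *Smad6* was thus higher where the other inhibitory Smad, *Smad7*, was lower, and both were called in all 8 fits with a library left out.

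Of 14 tested negative regulators, cofactors and turnover genes, 3 fell and 1 rose (median log2 fold change -0.23). The shares over all genes were 7.97% lower and 4.36% higher. *Ski*, the co-repressor related to *Skil*, fell from 160 ± 37.8 to 49.7 ± 3.02 CPM, a log2 fold change of -1.69 (SE 0.19, adjusted p = 0.000683). *Tgif2*, another nuclear co-repressor, fell from 3.89 ± 0.897 to 0.318 ± 0.2 CPM (log2 fold change -3.59, adjusted p = 0.00421), and it passed the filter on low counts through the controls. *Pmepa1*, a TGFβ-induced inhibitor that sequesters receptor-regulated SMADs, fell from 403 ± 154 to 143 ± 37.9 CPM (log2 fold change -1.50, adjusted p = 0.0118). *Bambi*, a decoy receptor, rose from 18.6 ± 6.4 to 58.0 ± 27.2 CPM (log2 fold change 1.64, adjusted p = 0.0268), a call kept without control 3, mutant 1 or mutant 2 and lost without each of the other 5 libraries.

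The SMAD-independent list held genes of the route from the receptors through TAK1 to p38 and JNK, along with *Rhoa*, *Pard6a* and *Shc1*. Of its 14 genes, 2 fell and none rose, beside 7.97% lower and 4.36% higher over all genes. The median log2 fold change was -0.46. *Mapk14*, which encodes p38α, fell from 210 ± 53.5 to 81.3 ± 32.9 CPM (log2 fold change -1.37, SE 0.30, adjusted p = 0.0189), with the call lost without control 2, control 3, mutant 2 or mutant 3 (adjusted p up to 0.058). *Map3k7*, which encodes TAK1, changed by -0.78 (SE 0.21, adjusted p = 0.0455) and was called in only 1 of the 8 fits with a library left out, that without mutant 3. In 6 of the 14 genes all mutants were below all controls, against 13.0% of all genes.

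Of 10 tested genes listed here as TGFβ-induced targets, 3 fell and 1 rose (median log2 fold change -0.42). Over all genes, 7.97% were called lower and 4.36% higher. The list was written with earlier results of these data known. The other 6, *Ccn2*, *Cdkn1a*, *Cdkn2b*, *Junb*, *Fn1* and *Col1a1*, were not called. *Itgb5*, an integrin subunit gene, fell from 1896 ± 393 to 489 ± 116 CPM (log2 fold change -1.96, SE 0.23, adjusted p = 0.000886). *Pdgfb*, a growth factor gene, fell from 127 ± 17.6 to 68.7 ± 4.15 CPM (log2 fold change -0.89, adjusted p = 0.00432). *Tgfbi*, an extracellular matrix gene, went the other way, from 89.8 ± 20.9 to 377 ± 103 CPM (log2 fold change 2.07, SE 0.25, adjusted p = 0.000921), and was called in all 15 alternatives. The border-associated macrophage markers rose in the same libraries, and their part in the rise of *Tgfbi* was not tested.

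**Figure D5:**
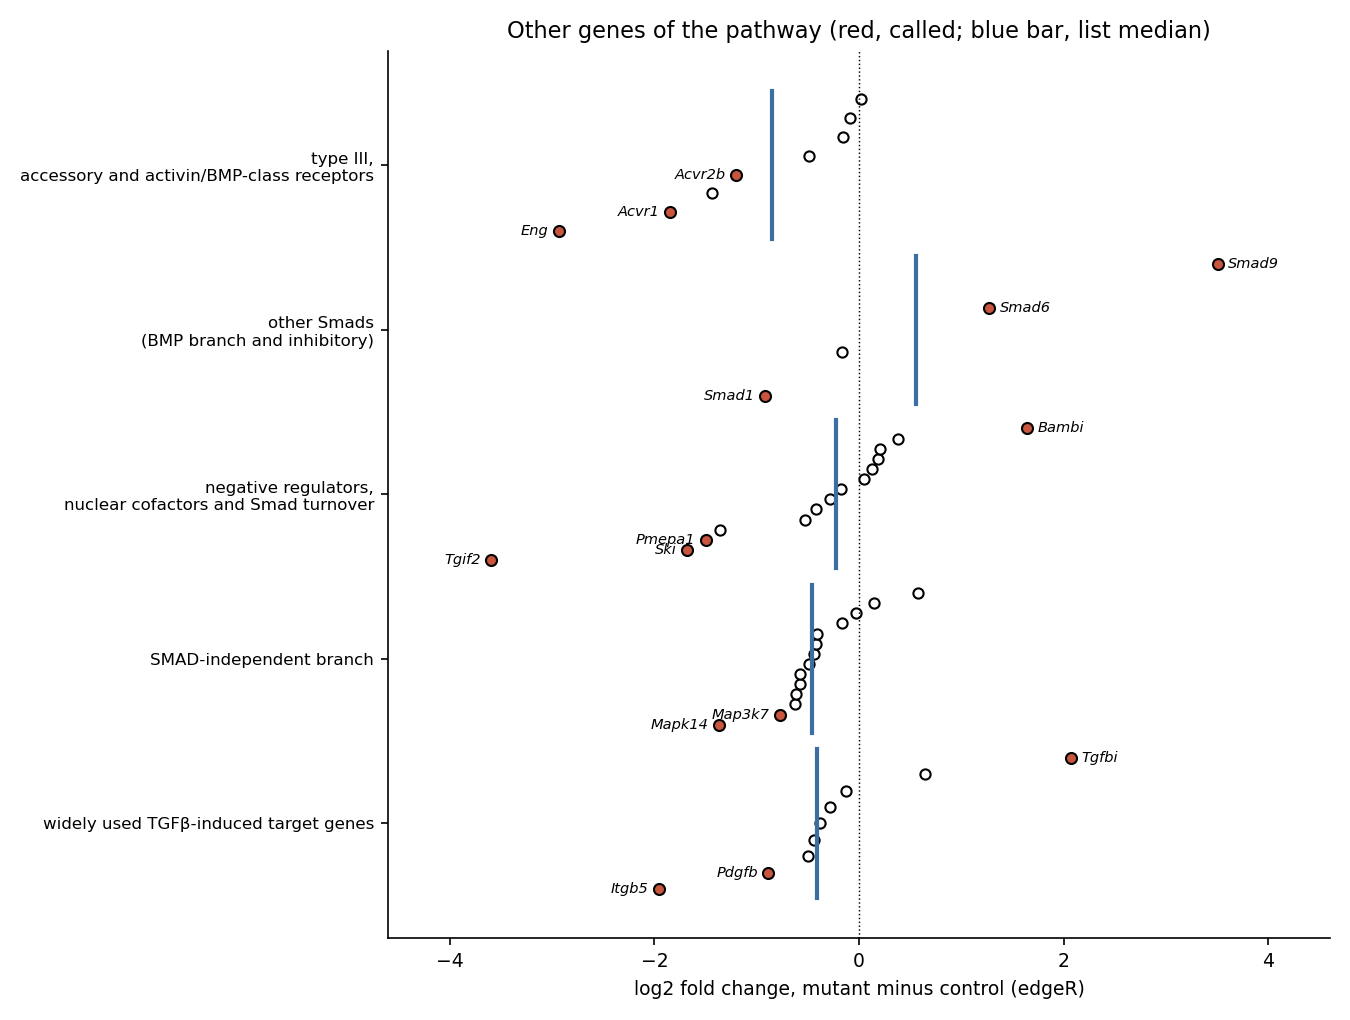
Log2 fold change of mutants over controls (edgeR) for the 50 tested genes of 5 further pathway lists, with called genes filled and named, other genes open, 1 called gene of the target list left out, and the list median as a blue bar. Called genes lie on both sides of 0 in 3 of the 5 lists, and the receptor list and the SMAD-independent branch have called genes on the lower side alone.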

How the data were processed

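RNA-seq of sorted microglia was analysed from 4 SmadKO and 4 WT mice, grouped by sample title. According to the study's methods, the authors mapped reads onto mm10 using Rsubread and assigned them to genes with featureCounts, from unstranded libraries. The labels and the methods describe different library kits (single-end and paired-end), and the methods name another deposit for *Smad2/3* mutant data, so that these are its libraries is an assumption. The authors deposited raw counts per gene, and these were used. A table of the authors' own DESeq2 comparison (log2 fold changes and p-values) was not used. The labels name featureCounts and DESeq2 1.28.

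Symbols, coordinates and exon lengths came from GENCODE M21 on GRCm38, which matched 55480 of 55573 identifiers. A gene was tested if 4 or more of the 8 libraries had 10 or more counts. After TMM scaling, edgeR 4.0.16 in R 4.3.3 compared the groups with glmQLFit and glmQLFTest, with no block. Adjustment was by Benjamini and Hochberg over all genes tested, and no pathway list was tested as a set. Log2 ratios and correlations used log2 CPM with a prior count of 2. DESeq2 1.42.0 and other scalings, filters, left-out libraries and a replicate block were alternatives. Scripts were first tested on simulated data. The estimated biological coefficient of variation of 0.542 describes the spread between libraries beyond counting error, in which mice, sorting and library preparation cannot be told apart. Replicate libraries of a group differed far beyond sampling noise (chi-square of 111 or more per gene). P-values cover the spread between these libraries, 1 per mouse.

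The genes, lists and ratios were chosen with earlier results of these data known. From each further list, up to 6 called genes with the largest absolute fold change and a mean of at least 1 log2 CPM were named. A marker and a target gene that enter their lists' counts and medians are not reported singly here. *Tgfbr3*, *Smad5*, *Foxh1*, *Snai1*, the single border-associated macrophage markers and the target genes without a call were named after their values were seen. The same holds for the macrophage markers without a call. Promoter windows are RefSeq's; members without an entry, and sequences of genes on chromosome 18, are not shown.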

Additional observations from a re-analysis of the deposited data

Results flagged for a closer look

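The *Tgfbr2* to *Tgfbr1* log2 ratio of mutant 4, at -0.298, lay far from those of mutants 1 to 3 (0.472 to 0.63). Its gap to the nearest mutant was 0.8292 of the mutants' whole range, just past Dixon's critical value for 4 samples. Among 28 sets of 4 libraries examined (10 genes and 4 ratios in each group), this was the single one past it, and chance alone passes about 5% of such sets.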

How the results depend on the processing

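*Tgfbr1* and *Smad7* were called under all 15 alternatives, and *Tgfb2*, *Smad2* and *Skil* under none, and no member changed direction in any. The 5 members called lower became 3 with library totals and 3 without both libraries numbered 1 (an alternative added after seeing the data, since these held the most neural RNA), and 2 to 5 with 1 library left out. The count was 4 with no filter on low counts. It was 6 with DESeq2, with at least 10 counts in all 8 libraries and with the replicate block. The 1 member called higher, *Tgfb3*, became 0 with the replicate block (edgeR; 2 at an unadjusted p under 0.05) and 0 without both libraries numbered 1 (1 unadjusted), while DESeq2 called 1. The other pathway genes called went from 12 lower and 4 higher to 7 to 12 lower and 2 to 4 higher with 1 library left out. DESeq2 called 15 of them lower and 4 higher, and library totals gave 10 lower and 4 higher. The cause of these changes was not tested. Library totals moved the median log2 fold change of all genes by 0.12. The pathway's median within-group r was 0.0758 to 0.37, and that of *Smad2* and *Smad3* 0.67 to 0.91, with 1 library left out. Over all genes, 2485 were called, against 4266 by DESeq2, 1567 without control 3 and 1572 without control 2. Deviations of same-numbered mutants and controls had r of 0.166, 0.0183, 0.144 and 0.114 for numbers 1 to 4. Those of other combinations ran from -0.223 to 0.108, so numbers 1, 3 and 4 gave the highest values. The labels do not say that a number pairs mice, so the main fit had no block, and a pairing remains possible. With the replicate block 2383 genes were called, and the block added *Tgfb1* (adjusted p = 0.0408 in edgeR's test) and removed *Tgfb3* (0.0676) among the members. The spread between libraries, rather than counting error, limits the precision of the members.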
